A study of Mus musculus with 12 samples.

Results

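Titin, nebulin and the scaffold proteins of the Z-disc were followed through early muscle differentiation in the mouse line C2C12, whose myoblasts fuse into multinucleated myotubes in culture. The 10 genes were Ttn, Tcap, Neb, Actn2, Actn3, Ldb3, Myoz2, Myot, Flnc and Des, of 19057 genes with at least 1 assigned probe. All 34 probes assigned to these symbols were taken, of 45281 probes on the array, whatever their level. Total RNA was hybridised to 12 Illumina bead arrays, 3 for each of 4 stages: myoblasts at 50% and at 95% confluence in DMEM with BCS, and myotubes after 24 h and 48 h in DMEM with horse serum, insulin and transferrin. Every group came from the same line, and the cultures put into differentiation medium had reached full confluence. The 24 h and 95% groups therefore differ in medium, time and confluence together, which cannot be told apart. The labels give each stage samples 1 to 3 without naming them as separate cultures, so p-values cover only the spread between these samples.

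The sarcomere is bounded by Z-discs, where thin filaments of neighbouring sarcomeres meet and are cross-linked by alpha-actinin. Titin, a single giant molecule, runs from the Z-disc to the M-band, and the small protein telethonin (Tcap) joins the ends of titin molecules at the Z-disc. Nebulin lies along the thin filament. Adaptors such as ZASP (Ldb3), calsarcin-1 (Myoz2) and myotilin bind alpha-actinin, filamin C links the Z-disc and the cell membrane, and desmin filaments tie neighbouring Z-discs together. In forming muscle, alpha-actinin and titin assemble into early Z-bodies before mature striations appear.

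Values are the authors' log2 normalized signal, which ran from 6.319 to 15.253 with a median of 6.684 on each array. A probe at or below that median is called dim here, and a change from a dim level can be understated. Of the 34 probes, 29 exceeded that median throughout at least 1 stage, on all 3 of its arrays, and 5 did not (3 of Ttn and both of Myot). Probes of a gene are not replicates, since they are assigned to the same gene, and the level of a probe was not set against that of another. They were assigned through 1 or more transcript records per gene (3 for Ttn and 5 for Ldb3), and 31 of the 34 have a record listed in RefSeq. Probe positions were not available, so which transcripts each probe reads is not known. Arrays of a stage correlated at 0.9975 or above, except the 95% arrays, whose lowest correlations were 0.9902 to 0.9907. Array 3 of the 95% stage had a residual SD of 0.129, against 0.0848 and 0.0886 on the other 2 arrays of that stage and 0.048 to 0.0578 on the remaining arrays. The 6 measured markers of differentiated muscle (Myog, Ckm, Mylpf, Acta1, Myh8 and Tnnc2) summed to 52.1 to 54.7 log2 units at 50% confluence, 41.5 to 46.4 at 95%, 71.3 to 74.0 at 24 h and 82.3 to 83.0 at 48 h. The sums were lowest at 95% confluence and highest at 48 h, as were Ttn ILMN_3128792 and Flnc ILMN_2618364, while Actn3 and Des were not lowest at 95%. Between 50% and 95% confluence 3 of the 6 markers were lower (Acta1, Mylpf and Tnnc2) and 3 had no call. In whole-culture RNA more differentiated cells and more RNA per cell cannot be told apart. Growing-myoblast markers (5 measured) summed to 47.6 to 47.9 at 50% confluence, 44.99 to 46.3 at 95%, 43.4 to 43.7 at 24 h and 40.2 to 40.5 at 48 h. Over the whole course 3 of them were lower, Id3 (-2.54), Ccnd1 (-2.91) and Top2a (-1.98). Myf5 and Pax7 had stage means below the array median throughout and were not called. The 4 adipocyte markers summed to 26.2 to 26.6 and the 3 leukocyte markers to 19.6 to 19.8 over all arrays. The 5 heart markers summed to 33.7 to 33.8 at 50% confluence, 34.1 to 34.3 at 95%, 35.5 to 36.0 at 24 h and 34.1 to 34.2 at 48 h. The 5 smooth muscle markers summed to 47.3 to 47.4 at 50%, 45.3 to 46.2 at 95%, 45.5 to 45.9 at 24 h and 46.6 to 46.7 at 48 h. Osteoblast markers (4 measured) lay between 26.5 and 27.1 and endothelial markers (4 measured) between 26.7 and 27.0 over all arrays. The part of any of these lists in the results was not tested.

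Over the whole course, 48 h myotubes against 50% confluent myoblasts, the Z-disc scaffold rose broadly. At an adjusted p under 0.05, 25 of the 34 probes (73.5%) from 9 of the 10 genes were higher, against 12.2% of all probes. A single probe was lower (2.94%), against 14.3% of all probes. The median log2 difference was 1.12 for the 34 probes and -0.00 for all probes. Of the 34 probes, 17 passed with at least a 2-fold rise, against 2.29% of all probes. Actn2 and Ttn had the largest rises and Myot had none that passed. The plot of each gene's brightest probe shows the 4 stages array by array.

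**Figure D1:**
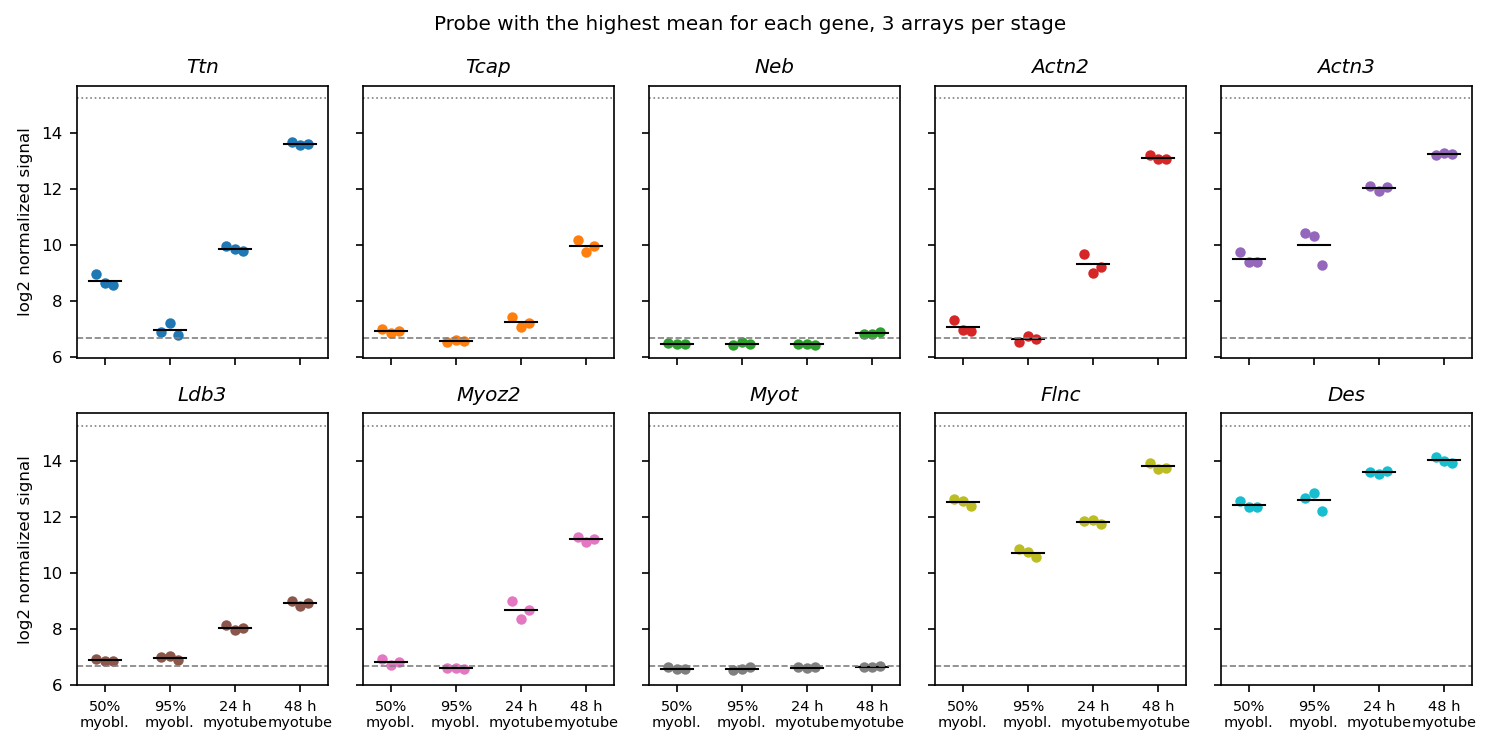
Log2 normalized signal of the probe with the highest mean for each of the 10 genes, with 1 point per array and a bar at the stage mean (3 arrays per stage). The dashed line is the array median (6.684) and the dotted line the highest value (15.253). Ttn and Flnc dipped at 95% confluence, while Neb and Myot stayed close to the median line at every stage.

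RefSeq start sites of GRCm38.p6 gave 8 promoter windows for 6 of the 10 genes (Ttn, Actn2, Ldb3, Myoz2, Flnc and Des). The 250 bases before the start are shown 5′ to 3′ for 3 genes that were far below their 48 h level in myoblasts and for Des, which was already bright there. They lie at chr2:76982548-76982797 (minus strand, Ttn), chr13:12340733-12340982 (minus strand, Actn2), chr3:123034988-123035237 (minus strand, Myoz2) and chr1:75360042-75360291 (plus strand, Des). Capitals mark the E-box CANNTG, a general pattern that includes the sites of MyoD-family factors, whatever its 2 middle letters.
Ttn: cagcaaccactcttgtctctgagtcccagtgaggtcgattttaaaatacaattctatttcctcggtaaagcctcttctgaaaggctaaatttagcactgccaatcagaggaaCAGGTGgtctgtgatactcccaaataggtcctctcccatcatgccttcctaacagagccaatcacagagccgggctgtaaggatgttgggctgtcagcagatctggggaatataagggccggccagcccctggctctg
Actn2: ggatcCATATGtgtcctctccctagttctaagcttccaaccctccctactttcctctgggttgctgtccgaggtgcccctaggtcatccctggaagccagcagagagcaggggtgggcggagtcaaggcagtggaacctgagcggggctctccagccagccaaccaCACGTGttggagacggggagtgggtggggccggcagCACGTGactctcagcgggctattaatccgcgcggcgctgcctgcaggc
Myoz2: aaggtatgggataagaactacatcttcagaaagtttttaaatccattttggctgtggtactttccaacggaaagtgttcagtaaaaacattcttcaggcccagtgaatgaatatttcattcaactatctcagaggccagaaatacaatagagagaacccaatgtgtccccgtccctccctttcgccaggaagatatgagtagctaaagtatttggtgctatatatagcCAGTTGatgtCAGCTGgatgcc
Des: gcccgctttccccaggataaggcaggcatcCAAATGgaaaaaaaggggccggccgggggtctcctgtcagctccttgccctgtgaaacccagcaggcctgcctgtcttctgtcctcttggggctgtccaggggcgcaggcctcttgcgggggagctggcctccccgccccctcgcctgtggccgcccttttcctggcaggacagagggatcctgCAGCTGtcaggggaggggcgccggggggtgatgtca
The E-box was searched on both strands in windows of 300 bases, which add 50 bases after the start, and 72.3% of all 32851 windows hold at least 1. Ttn had 1 E-box, with its first letter at position -138 from the start, and Actn2 had 3, at -245, -84 and -48. Myoz2 had 2, at -22 and -12, and Des had 2, at -220 and -36. The last one of Myoz2 and of Des reads CAGCTG, a form of the E-box that 16.3% of all windows hold. The binding site of MEF2 factors, in 3.19% of windows, was found in lower case at -166 in Ttn and at -33 in Myoz2. The CArG box of serum response factor, in 1.63% of windows, was found in the Ldb3 windows and in no other of the 8. TATAAA, in 13.6% of windows, was in none of the 8. These are matches of letters, and binding was not measured.

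Titin was read by 12 probes that did not behave alike. The brightest, ILMN_3128792, gave 8.99, 8.64 and 8.59 log2 units at 50% confluence, 6.89, 7.22 and 6.81 at 95%, 9.99, 9.86 and 9.79 at 24 h, and 13.69, 13.58 and 13.63 at 48 h. The 4 stages did not overlap, with 95% confluence the lowest and 48 h the highest. It was 2.91 log2 units higher at 24 h than at 95% (SE 0.12, adjusted p = 3.38e-08), or 7.51-fold. It was a further 3.75 higher at 48 h than at 24 h (SE 0.12, adjusted p = 2.77e-09), or 13.5-fold. Its signal at 24 h was 7.43% of the 48 h signal, and at 95% confluence it was 0.989%. The latter can be overstated, since the 95% mean of 6.97 lay near the array median of 6.684.

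Titin probe ILMN_1223811 had a stage mean of 7.07 at 50% confluence, 6.66 at 95%, 8.02 at 24 h and 11.49 at 48 h. It rose on both days, by 1.36 (adjusted p = 1.04e-05) and then by 3.48 (adjusted p = 4.25e-09), starting from a dim level. Probe ILMN_1220329 rose in the same order, by 0.92 and then by 1.69. Probe ILMN_1228221 had the opposite timing. It lay close to the array median, at 6.63, 6.70 and 6.62 at 50% confluence and at 6.74, 6.65 and 6.64 at 95%, then reached 8.87, 8.77 and 8.84 at 24 h and 9.92, 9.45 and 9.86 at 48 h. The 2 myoblast stages overlapped and both myotube stages stood apart from them and from each other. Its first-day step of 2.15 (SE 0.10, adjusted p = 7.68e-08) exceeded its second-day step of 0.91 (SE 0.10, adjusted p = 2.37e-05).

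The other 8 titin probes stayed within 1 log2 unit of their lowest stage mean. ILMN_2744368 was highest at 24 h, with 7.55, 7.44 and 7.53, against 6.82, 6.80 and 6.63 at 95%, a rise of 0.75 (adjusted p = 1.32e-06). At 48 h it gave 7.31, 7.34 and 7.39, below every 24 h array, a difference of -0.16 (SE 0.05, adjusted p = 0.0352). That difference did not pass when 24 h array 1 or 3, or 48 h array 1 or 2, was left out (-0.14 to -0.16, adjusted p = 0.0946 to 0.131), nor with the arrays centred (-0.13, adjusted p = 0.0775). ILMN_2443220 and ILMN_1231542 had stage means below the array median until 24 h and rose on the second day, by 0.92 and 0.61 (adjusted p = 4.52e-07 and 2.33e-06). ILMN_1219166 rose on the second day by 0.12 (adjusted p = 0.00454), and ILMN_1234729 passed over the whole course alone, with a difference of 0.11 (adjusted p = 0.0354, or 0.0832 to 0.137 without 50% array 1 or 2 or 48 h array 2 or 3). ILMN_1226700, ILMN_2499436 and ILMN_1233441 passed in no comparison. The line plot of the 12 titin probes shows this spread.

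**Figure D2:**
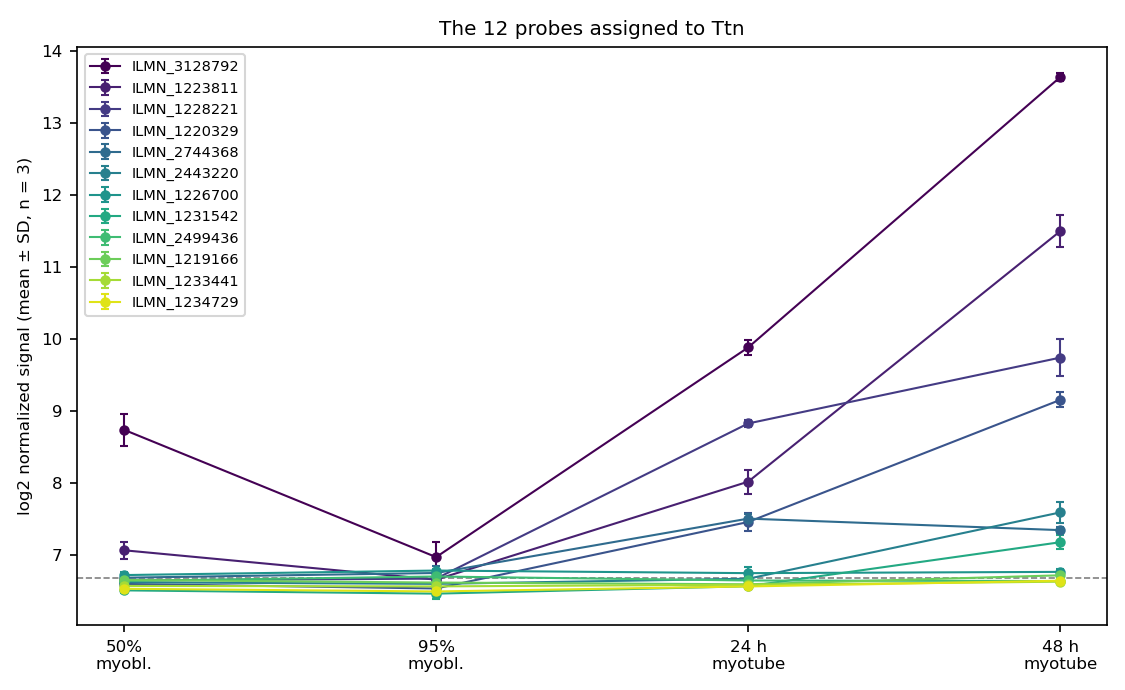
Stage means of the 12 Ttn probes on the log2 scale, with SD over 3 arrays and the array median as a dashed line. ILMN_3128792 fell to 6.97 at 95% confluence and reached 13.63 at 48 h, ILMN_1228221 made most of its rise by 24 h, and several probes stayed at the median.

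Telethonin, the cap of titin, rose mostly on the second day. Tcap probe ILMN_2696682 gave 7.01, 6.88 and 6.93 at 50% confluence, 6.56, 6.64 and 6.57 at 95%, 7.45, 7.08 and 7.24 at 24 h, and 10.18, 9.77 and 9.99 at 48 h. The stages did not overlap, and 95% confluence was the lowest. It was 0.67 higher at 24 h than at 95% (SE 0.10, adjusted p = 8.06e-04) and 2.72 higher at 48 h than at 24 h (SE 0.10, adjusted p = 9.60e-09). The second probe, ILMN_2933357, differed by 0.17 on the first day (adjusted p = 0.111, or 0.0381 without 48 h array 2) and rose by 1.70 on the second (adjusted p = 9.05e-09). Of the log2 rise between 95% confluence and 48 h, 19.7% and 9.03% had been made by 24 h on the 2 probes.

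Nebulin, the ruler-like protein of the thin filament, had 1 probe and a small late rise. ILMN_1235161 gave 6.50, 6.47 and 6.48 at 50% confluence, 6.44, 6.55 and 6.47 at 95%, 6.48, 6.49 and 6.46 at 24 h, and 6.84, 6.85 and 6.92 at 48 h. The first 3 stages overlapped below the array median, and only the 48 h arrays stood above it. It was 0.39 higher at 48 h than at 24 h (SE 0.04, adjusted p = 6.88e-06) and differed by -0.01 between 24 h and 95% confluence (adjusted p = 0.948). With a single probe this close to the median, the level of Neb transcripts at the earlier stages could not be separated from that of dim probes.

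The sarcomeric alpha-actinins, which cross-link thin filaments, both rose, and the timing of 1 was not tested against that of the other. Actn2, the form found in all skeletal muscle fibres and in heart, had the largest difference of the 34 probes between 48 h and 50% confluence. Probe ILMN_2764727 gave 7.33, 6.97 and 6.95 at 50% confluence, 6.55, 6.75 and 6.67 at 95%, 9.71, 9.01 and 9.24 at 24 h, and 13.24, 13.08 and 13.09 at 48 h. Every 24 h array was above every myoblast array, and every 48 h array above every 24 h array. The first-day step was 2.66 (SE 0.15, adjusted p = 4.77e-07) and the second-day step 3.82 (SE 0.15, adjusted p = 1.38e-08). Over the whole course it was 6.05 higher (adjusted p = 1.69e-10), or 66.4-fold. Probe ILMN_2797061 rose by 1.62 and then by 4.11 (adjusted p = 3.20e-06 and 1.90e-09), and its 24 h signal was 5.77% of that at 48 h. The third probe, ILMN_1258081, lay between 6.57 and 6.80 on every array and passed in no comparison. Its second-day difference of 0.13 (adjusted p = 0.0678) passed without 50% array 2 or 95% array 1 or 3 (adjusted p = 0.0381 to 0.0397) and, with all arrays kept, under 4 other settings: intensity trend, array weights, the 2 groups alone and centring (adjusted p = 0.0124 to 0.0305). Its whole-course difference (0.10, adjusted p = 0.143) passed without 50% array 2 (0.15, adjusted p = 0.033) and with centring (0.14, adjusted p = 0.0409).

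Actn3, the alpha-actinin of fast fibres, was already above the array median in myoblasts on all 3 probes. On the log2 scale its first-day step was the larger on each, but the difference between steps passed for 1 of the 3. ILMN_2747543 gave 9.77, 9.40 and 9.40 at 50% confluence, 10.44, 10.34 and 9.30 at 95%, 12.11, 11.95 and 12.09 at 24 h, and 13.23, 13.31 and 13.27 at 48 h. Array 3 of the 95% stage fell below the 50% arrays while the other 2 lay above them, and each myotube stage stood apart. It was 2.03 higher at 24 h than at 95% (SE 0.23, adjusted p = 1.04e-04) and 1.22 higher at 48 h than at 24 h (SE 0.23, adjusted p = 0.00203). ILMN_3008110 followed closely, with steps of 1.88 and 1.17 (adjusted p = 9.79e-05 and 0.0015). ILMN_2708303 rose by 1.72 on the first day (adjusted p = 1.62e-04) and differed by 0.45 on the second (SE 0.21, adjusted p = 0.179). Without array 3 of the 95% stage, which raises the shared spread, that second-day difference of 0.45 passed (adjusted p = 3.37e-04). At 24 h the 3 Actn3 probes stood at 42.9%, 44.3% and 73.1% of their 48 h signal, against 7.10% and 5.77% for the 2 Actn2 probes that changed.

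Among the adaptors that bind alpha-actinin, Myoz2 changed most. Myoz2 encodes calsarcin-1, which also binds the phosphatase calcineurin. ILMN_1234857 gave 6.93, 6.71 and 6.83 at 50% confluence, 6.59, 6.60 and 6.58 at 95%, 8.99, 8.35 and 8.68 at 24 h, and 11.28, 11.10 and 11.20 at 48 h. The stages did not overlap, and the 95% arrays were all below the array median. It rose by 2.08 on the first day (SE 0.12, adjusted p = 6.60e-07) and by 2.52 on the second (SE 0.12, adjusted p = 5.71e-08). The other probe, ILMN_1257860, had stage means below the array median until 24 h and rose by 0.33 on the second day (adjusted p = 1.52e-05).

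Ldb3, a PDZ and LIM domain protein of the Z-disc, rose on 3 of its 6 probes on both days. ILMN_3136283 gave 6.93, 6.85 and 6.84 at 50% confluence, 6.98, 7.04 and 6.90 at 95%, 8.14, 7.98 and 8.02 at 24 h, and 8.98, 8.83 and 8.93 at 48 h. The myoblast stages overlapped, and each myotube stage stood clear of the stage before it. Its steps were 1.07 and 0.87 (SE 0.05 each, adjusted p = 1.78e-07 and 3.50e-07). ILMN_1241773 rose by 0.82 and 1.36, and ILMN_2713622 by 0.49 and 0.59, with adjusted p of 3.95e-04 or smaller in all 4 comparisons. ILMN_2513993 rose by 0.22 on the first day alone (adjusted p = 4.36e-04), and ILMN_3071312 passed over the whole course alone, by 0.17 (adjusted p = 0.0279, or 0.0624 to 0.0893 without any 50% array or 48 h array 1 or 3). ILMN_1250896 was the 1 probe of the 34 that fell over the whole course, by 0.20 (SE 0.05, adjusted p = 0.0128), with 6.71, 6.79 and 6.72 at 48 h, against 7.05, 6.90 and 6.88 at 50% confluence. Without array 1 of the 50% stage the difference was -0.15 (adjusted p = 0.0526), and without array 1 of the 48 h stage it was -0.19 (adjusted p = 0.0516).

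Myotilin, an adaptor that binds alpha-actinin and filamin, gave no call. Its 2 probes had stage means of 6.57 to 6.65 (ILMN_2444217) and 6.58 to 6.61 (ILMN_2478649), below the array median at all 4 stages. The differences ranged from -0.02 to 0.07 log2 units over the 4 comparisons between stages. With the arrays centred, ILMN_2444217 passed over the whole course (0.11, adjusted p = 0.0267). A change below the signal of dim probes was not detectable.

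Filamin C and desmin, which join the Z-disc to the membrane and to its neighbours, were bright in growing myoblasts. Flnc probe ILMN_2618364 gave 12.65, 12.58 and 12.38 at 50% confluence, 10.87, 10.74 and 10.56 at 95%, 11.85, 11.87 and 11.75 at 24 h, and 13.94, 13.73 and 13.76 at 48 h. No stages overlapped, and the order was 95%, 24 h, 50% and 48 h from low to high. It was 1.10 higher at 24 h than at 95% (SE 0.09, adjusted p = 7.09e-06) and 1.98 higher at 48 h than at 24 h (SE 0.09, adjusted p = 2.97e-08). At 24 h it had not regained its level at 50% confluence, and over the whole course it was 1.27 higher (adjusted p = 4.87e-07). The second Flnc probe, ILMN_1260135, lay between 6.55 and 6.78 on every array and passed in no comparison.

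Desmin, the intermediate filament protein of muscle, had its larger log2 step on the first day. The difference between its steps did not pass (adjusted p = 0.135). Des probe ILMN_2836982 gave 12.57, 12.36 and 12.34 at 50% confluence, 12.69, 12.86 and 12.21 at 95%, 13.62, 13.53 and 13.62 at 24 h, and 14.12, 14.00 and 13.93 at 48 h. The myoblast stages overlapped, and the 24 h and 48 h stages stood apart. It was 1.004 log2 units higher at 24 h than at 95% (SE 0.13, adjusted p = 2.56e-04), and 74.3% of the 48 h signal was in place at 24 h. The second-day difference was 0.43 (SE 0.13, adjusted p = 0.0334). It did not pass when any 1 of the 24 h or 48 h arrays was left out, with differences of 0.38 to 0.47 (adjusted p = 0.0508 to 0.124).

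The first day of differentiation was read by setting 24 h myotubes against 95% confluent myoblasts. Of the 34 probes 18 (52.9%) from 8 genes were higher, against 6.9% of all probes, and 0 were lower, against 8.89% of all probes. The 8 genes were Ttn, Tcap, Actn2, Actn3, Ldb3, Myoz2, Flnc and Des, so Neb and Myot were the exceptions. The median difference was 0.35 for the 34 probes and -0.01 for all probes, and 12 probes passed with at least a 2-fold rise, against 0.954% of all probes.

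The second day, 48 h against 24 h myotubes, raised 21 probes (61.8%) from 9 genes, against 11.6% of all probes. The 1 lower probe (2.94%) was titin ILMN_2744368, against 11.6% of all probes. The median difference was 0.52 for the 34 probes and -0.01 for all probes. On both days 15 probes rose, 2 rose on the first day with no call on the second, titin ILMN_2744368 rose on the first day and was lower on the second, and 6 rose on the second day without a passing rise on the first.

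The timing was tested as the second-day step minus the first-day step on the log2 scale, and the 2 steps share the 24 h arrays. The second-day step was the larger for 13 probes (38.2%), against 8.04% of all probes, and the first-day step for 4 (11.8%), against 6.72% of all probes. The largest second-day excess was in Actn2 ILMN_2797061 (2.49, SE 0.20, adjusted p = 1.19e-05), Ttn ILMN_1223811 (2.12, SE 0.20, adjusted p = 2.95e-05), and both Tcap probes (2.05 and 1.53, adjusted p = 1.68e-05 and 5.17e-06). Ttn ILMN_3128792 (0.84, adjusted p = 0.014), Actn2 ILMN_2764727 (1.15, adjusted p = 0.0113) and Flnc ILMN_2618364 (0.88, adjusted p = 0.00212) were also later-weighted. Without array 2 or array 3 of the 24 h stage, the excess was 0.82 and 0.75 for the Ttn probe (adjusted p = 0.0594 and 0.0812) and 0.84 and 1.07 for the Actn2 probe (adjusted p = 0.0642 and 0.0623). Of the 13 probes, 9 had a 95% mean below the array median, and 4 still had a 24 h mean below it. A first-day rise from there can be understated, and the part of this in the timing was not tested.

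The rest of the 13 were Ttn ILMN_2443220 (0.85), ILMN_1220329 (0.77) and ILMN_1231542 (0.51), Ldb3 ILMN_1241773 (0.54), Neb (0.40) and Myoz2 ILMN_1257860 (0.34). The Ldb3 difference (adjusted p = 0.0311) did not pass without 95% array 2, 24 h array 2 or 3, or 48 h array 1 or 2 (adjusted p = 0.0552 to 0.172), nor in a fit of its 3 groups alone (adjusted p = 0.0648).

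The first-day step was the larger for Ttn ILMN_1228221 (difference -1.24, SE 0.17, adjusted p = 3.75e-04), Ttn ILMN_2744368 (-0.91, adjusted p = 2.77e-05), Actn3 ILMN_2708303 (-1.26, SE 0.36, adjusted p = 0.0373) and Ldb3 ILMN_2513993 (-0.26, adjusted p = 0.0056). The Actn3 difference did not pass with any 1 of the 50%, 24 h or 48 h arrays left out (adjusted p = 0.0541 to 0.169), nor with an intensity trend and robust prior (adjusted p = 0.0684) or in a fit of its 3 groups alone (adjusted p = 0.0818). The other Actn3 probes differed by -0.80 and -0.71 without passing (adjusted p = 0.272 and 0.303), as did Des (-0.58, adjusted p = 0.135). For Des the difference passed without array 2 of the 95% stage (-0.71, adjusted p = 0.031) and without array 3 (-0.39, adjusted p = 0.0447). Myoz2 ILMN_1234857 (0.44, adjusted p = 0.255) did not pass either, except without array 1 of the 24 h stage (0.76, adjusted p = 0.0151). The scatter of the 2 steps places each probe.

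**Figure D3:**
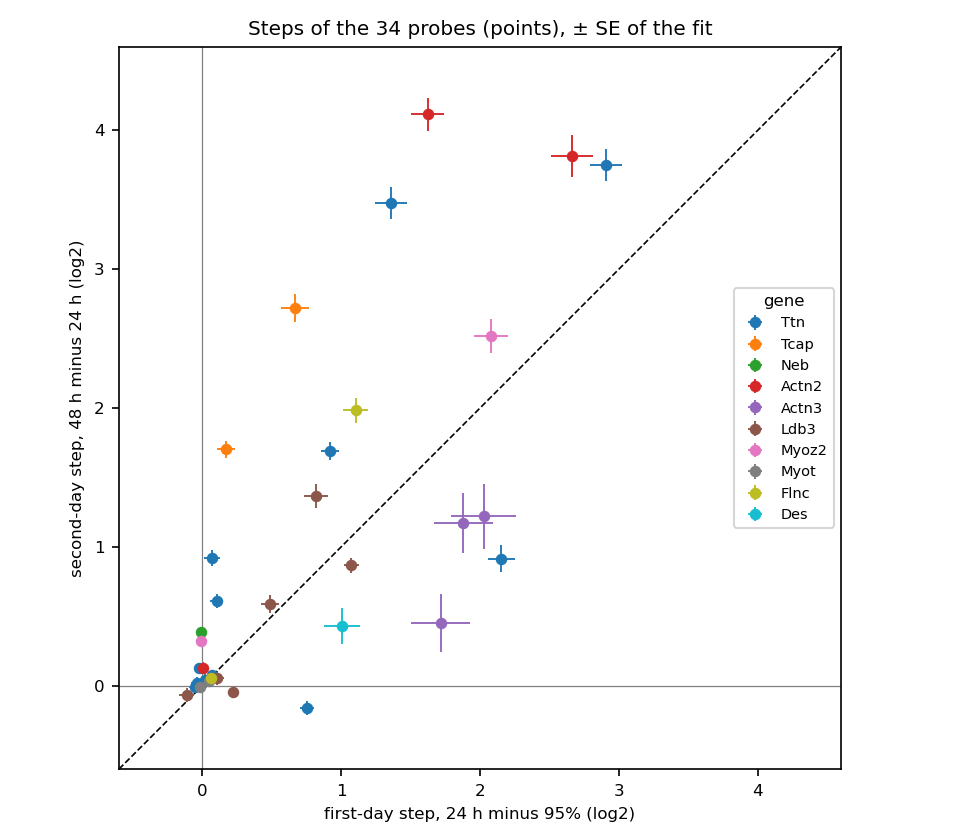
First-day step (24 h minus 95%, horizontal) against second-day step (48 h minus 24 h, vertical) in log2 units for the 34 probes, with SE bars from the fit and the diagonal of equal steps dashed. Actn2, Tcap and 2 bright Ttn probes lie above the diagonal, and the Actn3 probes, Des and Ttn ILMN_1228221 below it.

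Over the stage means, 17 of the 34 probes, from 8 genes, spanned at least 1 log2 unit. The smallest of these spans was 1.27 and the largest below the limit was 0.99 (Ttn ILMN_2443220). All 17 were highest at 48 h, with each 48 h array above each 24 h array and each 24 h array above each 95% array. The lowest stage was 95% confluence for 10 and 50% confluence for 7. The share of the 95%-to-48 h log2 rise made by 24 h ranged from 9.03% (Tcap ILMN_2933357) to 79.2% (Actn3 ILMN_2708303). These ranges are drawn as percentages of the 48 h signal.

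**Figure D4:**
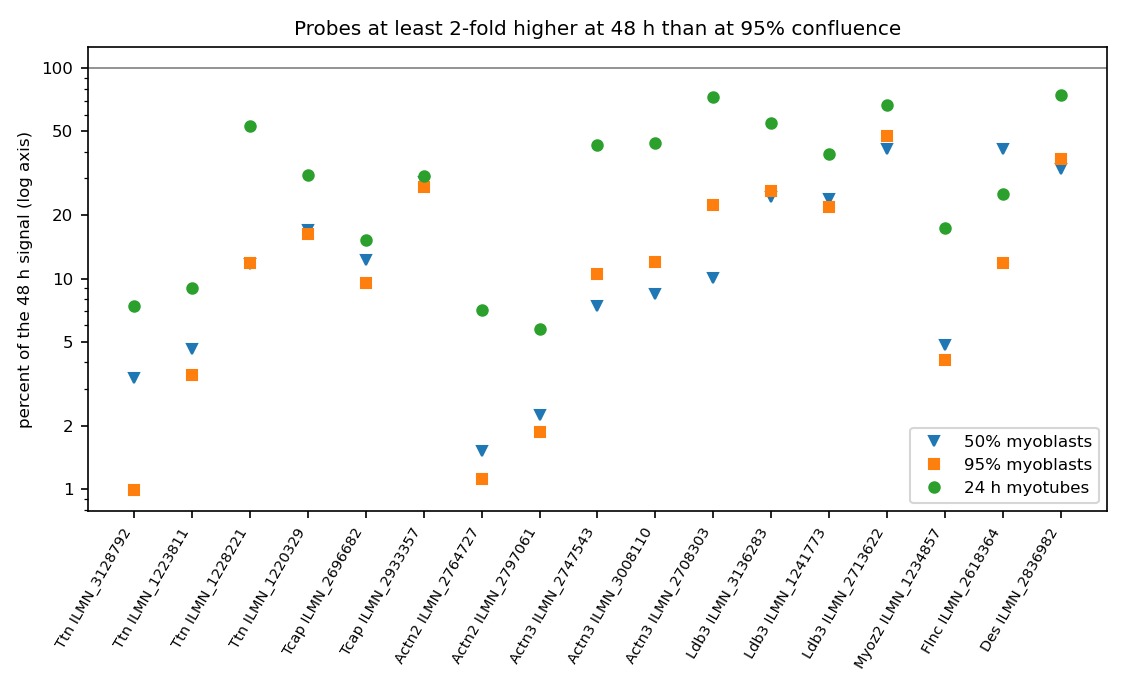
Signal at 50% confluence, 95% confluence and 24 h as a percentage of the 48 h signal (log axis, from the stage means of 3 arrays), for the 17 probes that were at least 2-fold higher at 48 h than at 95%. At 24 h the Actn2 probes stood at 7.10% and 5.77%, and Des at 74.3%. Percentages from stage means near the array median can be overstated.

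In 95% against 50% confluent myoblasts a few probes were lower and most had no call. Of the 34 probes 4 (11.8%) were lower, against 10.3% of all probes, and 1 (2.94%) was higher, against 9.75% of all probes, so the shares were near or below the background. The 2 large falls were in Flnc ILMN_2618364 (-1.81, SE 0.09, adjusted p = 2.62e-07), or 3.52-fold lower, and Ttn ILMN_3128792 (-1.77, SE 0.12, adjusted p = 1.76e-06), or 3.40-fold lower. Of the 6 measured markers of differentiated muscle, 3 were lower and 3 had no call. Acta1, skeletal muscle actin, differed by -3.11, Mylpf, a fast myosin light chain, by -2.93, and Tnnc2 by -2.05 (adjusted p = 4.18e-06, 8.32e-05 and 1.15e-04). Myog (-0.59), Ckm (-0.18) and Myh8 (-0.20) did not pass (adjusted p = 0.0576 to 0.466). The part of these markers in the falls of Flnc and Ttn was not tested.

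The smaller falls at confluence, of Ttn ILMN_1223811 (-0.41, adjusted p = 0.0261) and Tcap ILMN_2696682 (-0.35, adjusted p = 0.0309), were less stable. The Ttn difference was -0.34 to -0.44 with adjusted p of 0.0516 to 0.104 without array 1 or 2 of the 50% stage or array 1 or 3 of the 95% stage. The Tcap difference was -0.31 to -0.38 with adjusted p of 0.0538 to 0.106 without any of the 50% arrays or without array 1 or 2 of the 95% stage. The rise was in Actn3 ILMN_2708303, with 8.64, 8.47 and 7.57 at 95%, against 7.10, 7.13 and 7.06 at 50% confluence. All 3 arrays at 95% were above all 3 at 50%, with array 3 nearest to them, and the difference was 1.13 (SE 0.21, adjusted p = 0.00225). The other Actn3 probes differed by 0.50 each (SE 0.23 and 0.21, adjusted p = 0.191 and 0.146). Without array 3 of the 95% stage these became 0.86 and 0.83 (adjusted p = 1.95e-05 and 2.52e-05), Des differed by 0.35 in place of 0.16 (adjusted p = 0.00405 in place of 0.519), and the count of higher probes was 6 in place of 1. Actn2 ILMN_2764727 (-0.43, adjusted p = 0.0764) passed without 24 h array 1 or 2 (adjusted p = 0.0156 and 0.0407), and with all arrays kept under both filters on dim probes, the intensity trend and the replicate block (adjusted p = 0.0264 to 0.047). Ldb3 ILMN_2713622 (0.19, adjusted p = 0.0734) passed without 95% array 3 (0.25, adjusted p = 0.0126) or 48 h array 3 (adjusted p = 0.0375), and under the array-median filter, array weights and the replicate block (adjusted p = 0.0178 to 0.0499). Without 24 h array 2, Actn2 ILMN_2797061 passed as well (-0.27, adjusted p = 0.0353, against 0.154 with all arrays), as did Myoz2 ILMN_1234857 in a fit of the 2 groups alone (-0.24, adjusted p = 0.0407, against 0.259).

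The heat map of all 34 probes shows the array beside the others.

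**Figure D5:**
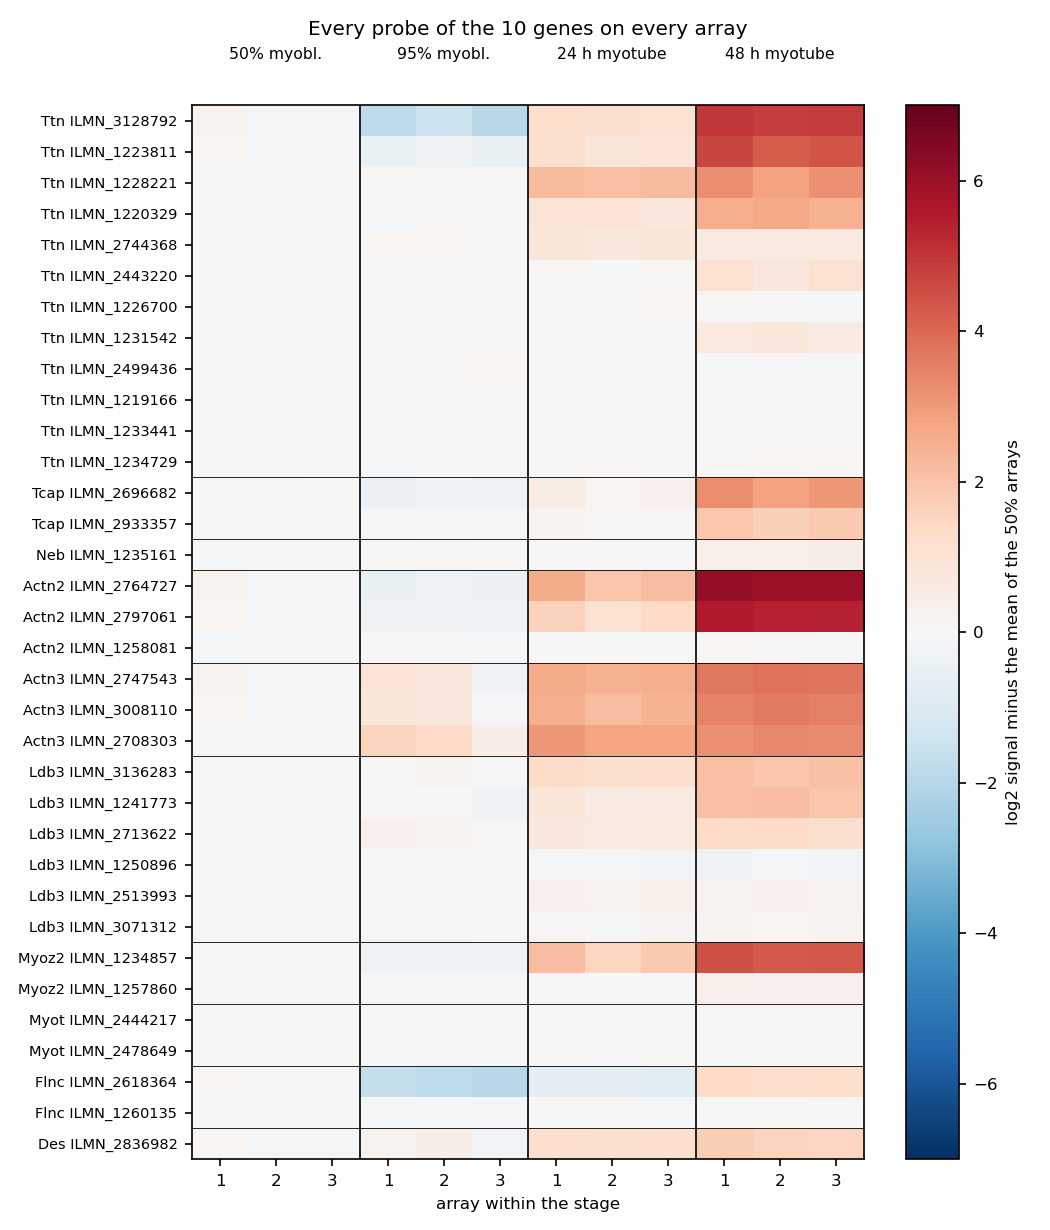
Log2 signal of each of the 34 probes on each of the 12 arrays, minus that probe's mean over the 50% arrays, with red higher and blue lower. The 95% arrays are blue for Ttn ILMN_3128792 and Flnc ILMN_2618364, and array 3 of that stage is paler than its neighbours for the Actn3 probes.

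Other proteins of the Z-disc were read from a fixed list of 23 genes, 22 with a probe, each by its brightest probe. Over the whole course 12 were higher, 3 lower and 7 not called, against 12.2% higher and 14.3% lower among all probes, with a median difference of 0.37. The share that was lower, 3 of 22, was near that of all probes, but these are not like sets. The genes of this list and of those below were read by their brightest probes. Of all 45281 probes, 23349 were above the array median throughout at least 1 stage. With only those 23349 tested, larger shares were called in both directions in every comparison between stages. Whether a list differed from probes of like level was not tested. The largest changes were in Csrp3, the muscle LIM protein (4.11, adjusted p = 6.86e-10), Pdlim3, the actinin-associated LIM protein (4.04, adjusted p = 1.85e-05), Synpo2l (2.86, adjusted p = 7.55e-11) and Nrap, a protein of early myofibril assembly (2.66, adjusted p = 1.18e-09). On the first day 9 were higher and 2 lower (all probes 6.9% and 8.89%), led by the same 4 genes (2.78, 2.56, 2.16 and 1.73, in that order). On the second day 7 were higher and 7 lower (all probes 11.6% each way), with Csrp3 at 1.93, Nrap at 1.31, Palld at 1.25 and Synpo2l at 0.996. At confluence 6 were higher and 5 lower (all probes 9.75% and 10.3%), with Palld, the actin-binding protein palladin, at -0.88 (adjusted p = 9.88e-07), Lmcd1 at 0.63, Csrp3 at -0.60 and Pdlim5 at 0.52. Palladin had stage means of 9.93, 9.04, 9.53 and 10.78 from 50% confluence to 48 h, the same order as Flnc.

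Titin's partners along the filament, 13 of 16 with a probe, mostly rose over the second day. There 11 were higher and 2 lower (all probes 11.6% each way), with Myom1, the M-band protein myomesin 1, at 2.55 (adjusted p = 2.98e-10), Ankrd2 at 2.29, Ankrd23 at 2.27 and Myom2 at 1.99. The 2 lower genes, named after their values were seen, were Fhl2 (-1.60, SE 0.03, adjusted p = 2.98e-10) and Ankrd1 (-0.37, adjusted p = 0.0112). Ankrd1, Ankrd2 and Ankrd23 encode the muscle ankyrin repeat proteins that bind the elastic part of titin. On the first day 9 were higher and 0 lower (all probes 6.9% and 8.89%), led by Myom2 (3.78, adjusted p = 6.50e-07), Trim54 (2.30), Myom1 (1.43) and Ankrd2 (1.27). At confluence 1 was higher, Fhl2 (0.13), and 3 lower, Ankrd1 (-0.33), Myom1 (-0.25) and Ankrd23 (-0.23), against 9.75% higher and 10.3% lower among all probes. Over the whole course the count was 11 higher and 2 lower (all probes 12.2% and 14.3%), with a median of 1.14.

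The widely expressed relatives of the Z-disc genes, 6 of 7 with a probe, mostly fell. Over the whole course 4 were lower and 1 higher (all probes 14.3% and 12.2%), with a median of -1.01. Actn1, the non-muscle alpha-actinin, differed by -1.38 log2 units (adjusted p = 1.92e-08), Flna, filamin A, by -1.28 (adjusted p = 3.16e-07) and Lasp1 by -1.20 (adjusted p = 3.32e-09). Pdlim5, a relative of Ldb3, was 1.62 higher (adjusted p = 2.04e-07). Actn1 had stage means of 12.84, 12.58, 12.04 and 11.46 from 50% confluence to 48 h, while Actn2 and Actn3 rose over the same arrays. Flna fell at confluence (-0.96, adjusted p = 1.29e-05), as Flnc did, but differed by -0.04 on the second day (adjusted p = 0.869), when Flnc rose by 1.98.

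Intermediate filament proteins and their linkers, 6 of 6 with a probe, were mixed. Over the whole course 2 were higher, 2 lower and 2 not called (all probes 12.2% higher and 14.3% lower). Sync, syncoilin, which binds desmin, was 1.65 higher (adjusted p = 3.16e-07), and Nes, nestin, was 0.72 higher (adjusted p = 1.32e-04). Vim, vimentin, another intermediate filament protein, differed by -0.85 (adjusted p = 4.04e-07), against a rise in desmin over the same stages. Its stage means were 14.31, 14.46, 14.21 and 13.46 from 50% confluence to 48 h. Plec, plectin, which anchors desmin to the Z-disc, fell by 0.90 at confluence (adjusted p = 2.07e-06), rose by 0.27 on the first day (adjusted p = 0.0098) and by 0.69 on the second (adjusted p = 5.07e-06).

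The genes closest in course to 3 of the probes were found by the root mean square difference over the 3 steps between stages, over 4 stages of 3 arrays and 11874 candidate genes. Nearest to Ttn ILMN_3128792 were Ryr1, the calcium release channel of skeletal muscle (0.639 log2 units), Mb, myoglobin (0.812), and Myom3 (0.933). Ryr1 stepped by 2.35 on the first day and 3.19 on the second. Nearest to Neb ILMN_1235161 were Tm6sf1 (0.007), Mtcl1 (0.011) and A730013G03Rik (0.016). Nearest to Des ILMN_2836982 were Fam8a1 (0.027), Calml4 (0.056) and Ralgps2 (0.058). Short distances are easier to reach where the steps are small, as for Neb.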

How the data were processed

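The authors deposited a table of log2 normalized signal for 45281 probes on 12 arrays. RMA and lumi were used, per the submitters' processing notes, with no version, role or order given, and the log2 scale was inferred from the deposited values. The sorted columns differ by at most 0.003, as quantile-normalized values do. A second table holds 24 per-sample columns whose names match no label, and these were not used. Probe names came from the platform annotation, in which 34885 probes have 1 gene, 18 several and 10378 none, and 34807 identifiers were found in the RefSeq table (0 symbols changed).

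Group means were fitted to all 45281 probes and 12 arrays in R 4.3.3 by lmFit and eBayes of limma 3.58.1 (8 residual and 3.12 prior degrees of freedom, no filter). Tests were 2-sided, with Benjamini-Hochberg adjustment over all probes within each comparison and a threshold of 0.05. Adjusted p come from this fit unless another setting or a left-out array is named beside them, and its standard errors share 1 spread over the stages, while the 95% arrays varied more. The procedure was tested on simulated data with 1 spread per probe over all 12 arrays, so the wider spread of the 95% arrays was not covered. The genes and lists, the rule for named genes (up to 4 of the largest called changes per list and comparison, and the 3 nearest genes by course), thresholds and alternatives were chosen with earlier results of these data known. The number of arrays limits the precision. Scanner detection calls were not used.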

Additional observations from a re-analysis of the deposited data

How the results depend on the processing

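No called result reversed its direction under any setting tried. The counts of the 34 probes moved by over 1.5 times in these cases. With only probes above the array median in a group, 2 were higher at 95% than at 50% confluence. With only probes averaging above 7.5, 13 were higher and 0 lower at 48 h than at 24 h, 14 higher and 0 lower at 48 h than at 50%, 7 had the larger second-day step and 2 the larger first-day step, since fewer probes were tested. With array weights, 4 were higher and 2 lower at 95% than at 50%. With the replicate block, 0 were lower at 48 h than at 24 h (Ttn ILMN_2744368, adjusted p = 0.0542) and 2 were higher at 95% than at 50%. The deviations of same-numbered arrays correlated at -0.05 to 0.27, over 0.1 in 5 of 18 pairs, and the numbers were not taken as pairs. An array correlated best with its own number in another stage in 18 of 36 cases, with 3 arrays to choose from each time. Whether the numbers mark pairs was not tested further. With arrays centred, 0 were lower at 48 h than at 24 h, and medians of all probes shifted by at most 0.04.

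Leaving out 1 array at a time gave 18 to 19 higher and 0 lower on the first day, 20 to 23 higher and 0 to 1 lower on the second, and 23 to 25 higher and 0 to 1 lower over the course. At confluence it gave 1 to 6 higher, the 6 without array 3 of the 95% stage, and 2 to 6 lower. The larger step was on the second day for 10 to 14 probes and on the first for 3 to 5. Of the single-probe and gene results, 1243 kept their side of the threshold under the other settings, 8 lost the call and 24 gained one. Direction was compared only where a result was called. Under leaving out an array the numbers were 1974, 48 and 18. The planned background correction of the table before normalization was not run, because its columns match no label.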

Other observations

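Among the marker lists for smooth muscle, heart, bone, fat, endothelial cells and leukocytes, Smtn and Nppb had the largest changes on the second day. Smtn, smoothelin, an actin-binding protein first described in smooth muscle, had stage means of 10.43, 9.80, 10.31 and 11.68 log2 units from 50% confluence to 48 h. It differed by -0.63 at confluence (adjusted p = 3.27e-05), 0.51 on the first day (adjusted p = 1.79e-04) and 1.37 on the second (adjusted p = 3.55e-08), with the stages in the same order as for Flnc. Tagln, transgelin, of the same list, differed by -1.91 over the whole course (adjusted p = 9.75e-07), and Myh11 and Cnn1, the defining myosin and calponin of smooth muscle, had stage means of 6.48 to 6.60. Nppb, a natriuretic peptide of the heart list, was highest at 24 h, at 9.29, against 7.97 at 95% confluence (difference 1.32, adjusted p = 1.86e-06), and differed by -1.91 at 48 h (adjusted p = 4.12e-08). Smaller changes on these lists were in Myh6 (0.34 on the second day, adjusted p = 1.47e-05), Sp7 (-0.39 at confluence, adjusted p = 4.22e-05) and Tek (0.17 over the whole course, adjusted p = 0.00544). All these genes were picked after their values were seen.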
